A study of Mus musculus with 6 samples.

Results

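The genes described here carry sugars, lactate, protons, bicarbonate and other anions across membranes, and they were read in the testes of 3 Prss54KO mice and 3 WT mice on 1-colour Agilent expression arrays. They were chosen by name alone, as every probe whose gene name starts with Slc2a, Slc4a, Slc9a, Slc16a, Slc22a or Slc26a and a number. That rule took 81 of the 27376 gene names and 139 of the 41174 probes. It also took Slc9a3r1 and Slc9a3r2, scaffold proteins that bind a proton exchanger, and Slc4a1ap, an adaptor protein, none of which carries a solute. All 6 mice were males aged 6 to 8 weeks, with 129Sv and C57BL/6 ancestry mixed in both genotypes. Each array held total RNA from the testis of 1 mouse. The sources used here do not say which stretch of Prss54 was deleted, and they name no litters, so every p measures the spread between these 3 animals per genotype.

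Developing sperm sit behind the blood-testis barrier and depend on Sertoli cells, which take up glucose and pass lactate on to them. Facilitative sugar carriers of the Slc2 (GLUT) family bring in glucose or fructose, and monocarboxylate carriers of the Slc16 (MCT) family move lactate and pyruvate together with a proton. Sodium-proton exchangers (Slc9), bicarbonate carriers (Slc4) and anion exchangers (Slc26) set the acidity inside the cell, and bicarbonate also switches on the sperm adenylyl cyclase. The Slc22 family carries organic cations, organic anions and carnitine, which sperm use to move fatty acid groups.

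A level below is the log2 of a probe's processed signal over the 75th percentile of its array, so a value above 0 means brighter than that percentile. A difference is Prss54KO minus WT on the log2 scale, with the standard error (SE) from limma. A name was tested if 3 or more arrays read a probe of it well above background. This held for 63 of the 81 names (77.8%), against 70.9% of all names on the array, and for 92 of the 139 probes (66.2%), against 70.2% of all probes. On all 6 arrays it held for 85 probes (61.2%), against 65% of all probes. The 18 others were not tested. These were Slc2a9, Slc2a10 and Slc2a13, then Slc16a5 and Slc16a14, then Slc9a9, then Slc4a4, Slc4a10 and Slc4a11, then Slc26a1, Slc26a5 and Slc26a9, and finally Slc22a2, Slc22a3, Slc22a19, Slc22a20, Slc22a26 and Slc22a28. Among them is Slc4a4, the electrogenic sodium bicarbonate carrier of the kidney, whose 3 probes were above background on 0 arrays.

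No transporter passed the test between genotypes: 0 of the 63 had an adjusted p under 0.05 (limma, Benjamini-Hochberg over all 19398 genes), as did 0% of all genes. At an unadjusted p under 0.05 there were 6 of 63 (9.52%), against 3.3% of all genes tested. Slc2a8, Slc22a30 and Slc9a7 were higher in Prss54KO testes, and Slc9a4, Slc16a9 and Slc22a12 were lower. For the higher direction the share over all genes was 1.72%, and for the lower it was 1.58%. Only 1 of the 6, Slc2a8, had a WT level above 0, and 3 had a WT level below -3. Of the 21 names with a WT level of -3 or less, 3 had a p under 0.05 (14.3%), against 337 of all 4865 genes at such levels (6.93%). Of the 21 with a level above 0, 1 had (4.76%), against 81 of all 8295 such genes (0.976%). Without WT replicate 1 the count was 2 of 63 and the share of all genes 1.99%, and without WT replicate 3 they were 8 and 6.50%.

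The differences were small. For 52 of the 63 names (82.5%) the difference was under 0.2 in size, against 89.4% of all genes. The median difference of the 63 was 0.03, against 0.01 for all genes, and the median size was 0.0733, against 0.0570. In 38 names the difference was above 0 and in 25 below (60.3% above, against 53.1% of all genes). The 3 animals of each genotype did not overlap for 7 names (11.1%), against 7.71% of all genes. These 7 were the 6 above and Slc2a4, the insulin-regulated glucose carrier, so 3 were higher in Prss54KO testes (all genes 4.07%) and 4 lower (all genes 3.64%). With 3 against 3 animals the exact permutation test (two-sided) cannot give less than 0.1, and all 7 stood at that value.

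**Figure D1:**
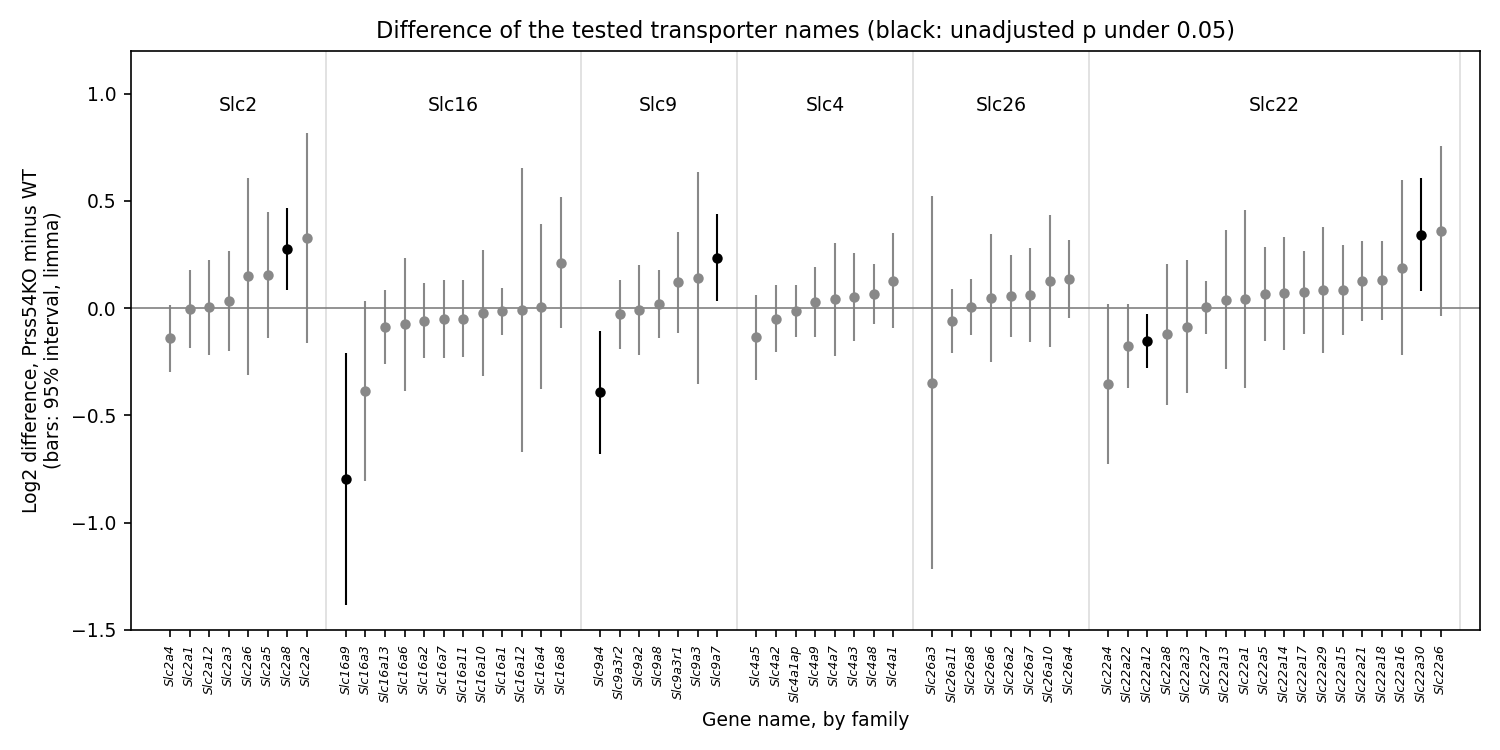
Log2 difference, Prss54KO minus WT (vertical axis), of 61 of the 63 tested transporter names, grouped by family along the horizontal axis. Points are limma estimates, bars their 95% intervals, and the 6 names with an unadjusted p under 0.05 are black. Most points lie near 0, and 10 of the 12 Slc16 points lie below it.

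By family, 6 of the 8 tested Slc2 names lay above 0 (median difference 0.09), 6 of 9 Slc9 names (0.02), 5 of 8 Slc4 names (0.03), 6 of 8 Slc26 names (0.05) and 13 of 18 Slc22 names (0.07). In the Slc16 family 2 of 12 lay above 0, with a median of -0.05. Unadjusted p was under 0.05 for 1 of 8 Slc2 names (12.5%), 1 of 12 Slc16 (8.33%), 2 of 9 Slc9 (22.2%) and 2 of 18 Slc22 (11.1%). For Slc4 and Slc26 names it was 0 of 8 each, and over all genes tested the share was 3.3%. The families are too small for these shares to be compared with one another. Over the 18 alternative settings, of which 1 drops the filter and so tests more names, between 1 and 6 Slc16 names lay above 0, with medians between -0.09 and 0.01. The Slc22 count above 0 ran from 5 to 18 over the same settings.

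Among the sugar carriers, 3 had a WT level above 0, Slc2a3, Slc2a5 and Slc2a8. Slc2a3 encodes GLUT3, a glucose carrier with high affinity that germ cells use. Its level was 6.38, 6.03 and 6.16 in Prss54KO testes, against 6.20, 6.11 and 6.15 in WT testes. The genotypes overlapped, and the difference was 0.03 with a 95% interval of -0.20 to 0.26. Slc2a5 encodes GLUT5, the fructose carrier. Its level was 6.02, 5.96 and 6.03 in Prss54KO testes, against 5.91, 5.58 and 6.04 in WT testes. WT replicate 2 was the lowest of the 6, and the difference was 0.16 (SE 0.12, unadjusted p = 0.244).

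Slc2a3 has 3 probes, and the first 30 bases of each are shown because they lie at different positions. Positions are those of the mm9 build as the array files give them.
brightest Slc2a3 probe: gtgcttacacatttcagaccctttaggcaa
dimmer Slc2a3 probe: cagtactgattagtactaactagcccttaa
other Slc2a3 probe: tgagcgtcatctccgtgatagctttgtgca
The brightest lies on the minus strand at chr6:122678075-122678134 and the dimmer one on the minus strand at chr6:122687773-122687832. The dimmer probe had levels of -3.42, -3.90 and -3.56 in Prss54KO testes and -3.26, -3.49 and -3.58 in WT testes, a difference of -0.18 (SE 0.15). The other one is placed on another chromosome, at chr17:83853065-83853125, and was above background on 0 of the 6 arrays.

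Slc2a8 encodes GLUT8, a glucose carrier of the testis that is largely held inside the cell. Its brighter probe read 1.58, 1.35 and 1.55 in Prss54KO testes, against 1.17, 1.22 and 1.26 in WT testes. All 3 Prss54KO testes lay above all 3 WT testes. The difference was 0.28 (SE 0.08), a 1.21-fold higher signal, with an unadjusted p of 0.0120 and an adjusted p of 0.9999 (limma). On the 1 slide that held both genotypes it was 0.20. The second Slc2a8 probe read -1.12, -1.48 and -1.04 in Prss54KO testes, against -1.33, -1.32 and -1.26 in WT testes. There the genotypes overlapped and the difference was 0.09 (SE 0.12). The first 30 bases of both are shown because the difference was seen with 1 of them.
brighter Slc2a8 probe: tcagaaagggacttagccatatgggctcag
dimmer Slc2a8 probe: tggcatctacaagcccctcatcatcggcat
They lie on the minus strand, at chr2:32828692-32828751 and chr2:32831712-32831771.

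The remaining sugar carriers were dimmer. Slc2a1, which encodes GLUT1, the basal glucose carrier, read -0.44, -0.37 and -0.53 in Prss54KO testes, against -0.52, -0.33 and -0.48 in WT testes. Its difference was -0.00, with a 95% interval of -0.19 to 0.18. Slc2a4, which encodes GLUT4, read -2.54, -2.70 and -2.62 in Prss54KO testes, against -2.41, -2.50 and -2.52 in WT testes. The 3 Prss54KO testes were the lowest of the 6, with a difference of -0.14 (SE 0.06, unadjusted p = 0.0696). Slc2a2, Slc2a6 and Slc2a12 had differences of 0.33, 0.15 and 0.00, and for each the genotypes overlapped.

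**Figure D2:**
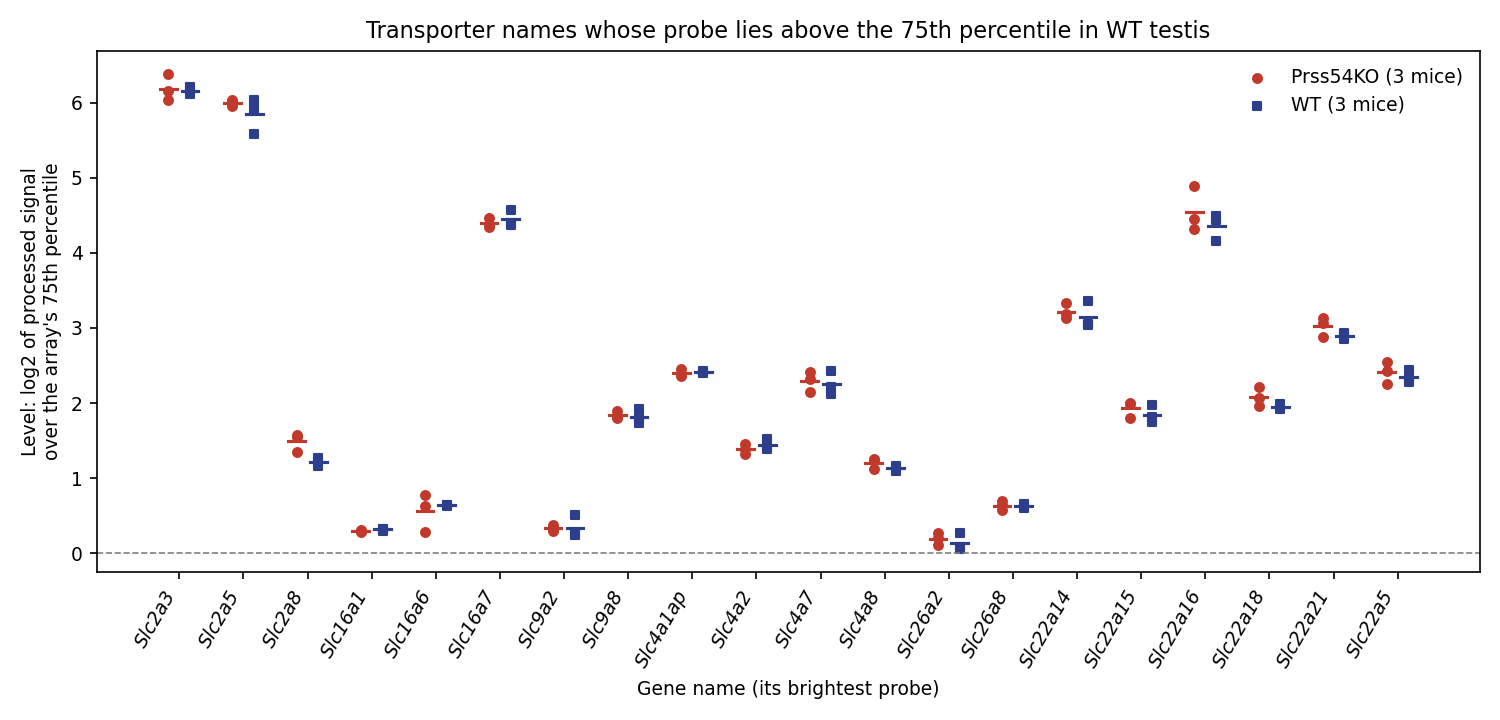
Level of the brightest probe (vertical axis, log2 over the array's 75th percentile) for 20 of the 21 tested names with a mean WT level above 0, ordered by family. Red circles are the 3 Prss54KO testes and blue squares to their right the 3 WT testes, with bars at the means. Slc2a8 is the 1 name in which the genotypes do not overlap.

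Of the monocarboxylate carriers, Slc16a1, Slc16a6 and Slc16a7 had a WT level above 0. Slc16a7 encodes MCT2, a carrier with high affinity for pyruvate and lactate. It read 4.38, 4.47 and 4.34 in Prss54KO testes, against 4.40, 4.37 and 4.57 in WT testes. The genotypes overlapped, with a difference of -0.05 (SE 0.07). Slc16a1, which encodes the widely expressed MCT1, read 0.32, 0.29 and 0.30 in Prss54KO testes, against 0.30, 0.33 and 0.32 in WT testes. Its difference of -0.02 had a 95% interval of -0.13 to 0.10, and normexp background correction turned its sign (0.02). Slc16a6 read 0.78, 0.63 and 0.28 in Prss54KO testes, against 0.63, 0.65 and 0.64 in WT testes. Prss54KO replicate 3 was the lowest, and the difference was -0.08 (SE 0.13).

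Slc16a9 encodes MCT9, for which carnitine transport has been described in human cells. It had the largest difference of the 63 names in either direction. Its level was -2.81, -2.997 and -3.12 in Prss54KO testes, against -1.96, -1.84 and -2.73 in WT testes. All 3 Prss54KO testes lay below all 3 WT testes, but WT replicate 3 stood close to them. The difference was -0.80 (SE 0.24, unadjusted p = 0.0159, adjusted p = 0.9999 by limma), a 1.74-fold higher signal in WT. Within the slide that held WT replicate 3 with Prss54KO replicates 1 and 2 the difference was -0.17, and without WT replicate 3 it was -1.07.

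Slc16a3 encodes MCT4, the lactate exporter of glycolytic cells. It read -0.76, -0.54 and -0.70 in Prss54KO testes, against -0.23, -0.64 and 0.03 in WT testes. WT replicate 2 lay within the Prss54KO range and WT replicates 1 and 3 above it. The difference was -0.39 (SE 0.17, unadjusted p = 0.0655), and -0.68 within the slide that held both genotypes. Without WT replicate 3 it was -0.23. Slc16a8 encodes MCT3, a lactate carrier of the pigmented cell layer behind the retina. It read -4.05, -4.45 and -4.35 in Prss54KO testes, against -4.59, -4.34 and -4.55 in WT testes, a difference of 0.21 (SE 0.13). The other 6 tested Slc16 names overlapped between genotypes, with differences between -0.09 and 0.01.

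Among the sodium-proton exchangers, Slc9a8 (NHE8), needed in the mouse for forming the acrosome, read 1.82, 1.80 and 1.89 in Prss54KO testes, against 1.92, 1.81 and 1.73 in WT testes. The difference was 0.02 (SE 0.07). Slc9a2 (NHE2), an exchanger best known from epithelia, read 0.29, 0.38 and 0.32 in Prss54KO testes, against 0.24, 0.51 and 0.27 in WT testes, a difference of -0.01 (SE 0.09). For both genes the genotypes overlapped with the brightest probe.

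Slc9a4 encodes NHE4, an exchanger known from stomach and kidney. It read -4.70, -4.90 and -4.83 in Prss54KO testes, against -4.18, -4.57 and -4.51 in WT testes. All 3 Prss54KO testes lay below all 3 WT testes, with a difference of -0.39 (SE 0.12, unadjusted p = 0.0148), and of -0.30 within the slide that held both genotypes. Normexp background correction brought it to -0.16. A second Slc9a4 probe was above background on 0 arrays. Slc9a7 encodes NHE7, an exchanger of the Golgi network. It read -4.72, -4.74 and -4.61 in Prss54KO testes, against -5.05, -4.95 and -4.78 in WT testes. The genotypes did not overlap, the difference was 0.24 (SE 0.08, unadjusted p = 0.0298 by limma), and within the shared slide it was 0.05. A second Slc9a7 probe was also above background on 0 arrays.

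Slc9a3 encodes NHE3, which reabsorbs sodium in kidney and efferent ducts. It read -4.35, -4.36 and -4.18 in Prss54KO testes, against -4.85, -4.44 and -4.03 in WT testes. The WT animals spread on both sides of the Prss54KO animals, and the difference of 0.14 (SE 0.20) turned to -0.33 within the shared slide. The scaffold genes Slc9a3r1 and Slc9a3r2 differed by 0.12 and -0.03.

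Among the bicarbonate carriers, Slc4a2, Slc4a7 and Slc4a8 had a WT level above 0. Slc4a7 (NBCn1), a sodium bicarbonate carrier, read 2.15, 2.41 and 2.32 in Prss54KO testes, against 2.21, 2.43 and 2.12 in WT testes. Its difference was 0.04 (SE 0.11). Slc4a2 (AE2), a chloride-bicarbonate exchanger without which mouse spermatogenesis fails, read 1.33, 1.45 and 1.39 in Prss54KO testes, against 1.40, 1.53 and 1.39 in WT testes. Its difference was -0.05 (SE 0.06). Slc4a8 (NDCBE), a sodium-driven exchanger, read 1.25, 1.12 and 1.24 in Prss54KO testes, against 1.17, 1.15 and 1.10 in WT testes, a difference of 0.07 (SE 0.06). With the brightest probe, all 8 tested Slc4 names differed by less than 0.2 in size and overlapped between genotypes.

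Slc4a1 encodes AE1, the anion exchanger of red blood cells. It read -3.53, -3.47 and -3.35 in Prss54KO testes, against -3.72, -3.58 and -3.44 in WT testes. The difference was 0.13 (SE 0.09), and -0.06 within the shared slide. The summed level of the 4 tested red blood cell markers, in multiples of the array's 75th percentile, was 10.6 to 14.2 in Prss54KO testes and 10.4 to 26.4 in WT testes. The adaptor gene Slc4a1ap read 2.45, 2.39 and 2.36 in Prss54KO testes, against 2.42, 2.41 and 2.41 in WT testes, a difference of -0.02 (SE 0.05).

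Of the Slc26 anion exchangers, Slc26a8 (TAT1) is made in male germ cells and sits at the annulus of the sperm tail, where it is known to bind the chloride channel CFTR. Its brightest probe read 0.64, 0.57 and 0.69 in Prss54KO testes, against 0.60, 0.65 and 0.63 in WT testes. The difference was 0.01, with a 95% interval of -0.13 to 0.14. The other 2 Slc26a8 probes differed by 0.02 and 0.04, so the 3 probes gave values within their SE of one another. Slc26a2, the sulphate carrier, was the other Slc26 name with a level above 0, and it differed by 0.06 (SE 0.08).

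Slc26a6, an exchanger of chloride for bicarbonate or oxalate, read -2.83, -2.52 and -2.69 in Prss54KO testes, against -2.88, -2.52 and -2.79 in WT testes. The difference was 0.05 (SE 0.12). Its 2 probes overlap by 40 of their 60 bases, so they are not independent readings. Slc26a3 (DRA), the chloride-bicarbonate exchanger of the gut, was above background on 3 of the 6 arrays. It read -6.30, -5.76 and -5.18 in Prss54KO testes, against -5.82, -4.84 and -5.54 in WT testes, a difference of -0.35 (SE 0.36). Slc26a4 (pendrin), which carries iodide in the thyroid, read -3.63, -3.76 and -3.71 in Prss54KO testes, against -3.81, -3.74 and -3.96 in WT testes, a difference of 0.14 (SE 0.07, unadjusted p = 0.116). For all of these the genotypes overlapped.

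The Slc22 family held 6 of the 21 names with a level above 0, among them the 3 carnitine carriers Slc22a5, Slc22a16 and Slc22a21. Slc22a16 (CT2) is known in human as a carnitine carrier of the testis. It read 4.32, 4.45 and 4.89 in Prss54KO testes, against 4.49, 4.16 and 4.44 in WT testes. Prss54KO replicate 3 was the highest, the difference was 0.19 (SE 0.17), and within the shared slide it was -0.05. Slc22a21 (OCTN3), a carnitine carrier of mouse testis, read 3.06, 2.88 and 3.13 in Prss54KO testes, against 2.85, 2.93 and 2.91 in WT testes. Its difference was 0.13 (SE 0.08). Slc22a5 (OCTN2), the sodium-dependent carnitine carrier, read 2.42, 2.26 and 2.55 in Prss54KO testes, against 2.28, 2.43 and 2.32 in WT testes, a difference of 0.07 (SE 0.09).

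The probe of Slc22a21 and the brighter probe of Slc22a5 share an exact run of 33 bases, so RNA of either gene may bind both, and their values are uncertain as readings of 1 gene. A stretch of 30 bases of each is shown with the shared bases in capitals, beside the same stretch of the second Slc22a5 probe.
Slc22a21 probe, bases 18 to 47: aaatgaatTGAGTCTCTTGAACAAGCAGGA
brighter Slc22a5 probe, bases 20 to 49: gaaatgaaTGAGTCTCTTGAACAAGCAGGA
dimmer Slc22a5 probe, bases 20 to 49: ctgccagccacttatctgtgtcttgaagga
They lie on the minus strand, at chr11:53764508-53764567, chr11:53679058-53679117 and chr11:53678550-53678609. The dimmer Slc22a5 probe, which shares no run of 15 or more bases with a probe of another gene name, read 0.83, 0.65 and 0.72 in Prss54KO testes and 0.80, 0.81 and 0.70 in WT testes. Its difference was -0.04 (SE 0.07), and the genotypes overlapped with all 3 probes.

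Slc22a14, a carrier that mouse sperm need for motility, read 3.19, 3.34 and 3.13 in Prss54KO testes, against 3.04, 3.05 and 3.36 in WT testes. The difference was 0.07 (SE 0.11), and -0.09 within the shared slide. Slc22a18, an imprinted gene, read 2.21, 1.96 and 2.07 in Prss54KO testes, against 1.92, 1.95 and 1.99 in WT testes, a difference of 0.13 (SE 0.08). Slc22a15 read 1.81, 1.996 and 1.99 in Prss54KO testes, against 1.81, 1.98 and 1.75 in WT testes, a difference of 0.08 (SE 0.09). In none of these 3 genes did the genotypes separate with the brightest probe.

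Slc22a12 encodes URAT1, the urate carrier of the kidney. It read -0.49, -0.58 and -0.49 in Prss54KO testes, against -0.38, -0.39 and -0.34 in WT testes. All 3 Prss54KO testes lay below all 3 WT testes, with a difference of -0.15 (SE 0.05, unadjusted p = 0.0240) and of -0.20 within the shared slide. Slc22a30, a mouse member of the family, read -3.74, -3.84 and -3.69 in Prss54KO testes, against -4.20, -4.22 and -3.87 in WT testes. The genotypes did not overlap, the difference was 0.34 (SE 0.11, unadjusted p = 0.0188), and within the shared slide it was 0.09.

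The probes of Slc22a12, Slc22a30 and Slc9a4 are shown whole as examples. Each was the 1 tested probe of a name whose genotypes separated. That also holds for Slc16a9, Slc9a7 and Slc2a4, whose probes are not shown.
Slc22a12 probe: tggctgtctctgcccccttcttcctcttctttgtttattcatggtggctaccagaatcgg
Slc22a30 probe: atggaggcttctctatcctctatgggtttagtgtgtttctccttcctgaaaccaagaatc
Slc9a4 probe: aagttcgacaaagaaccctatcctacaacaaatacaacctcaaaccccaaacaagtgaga
The files place them at chr19:6538783-6540371 on the minus strand, at chr19:8411250-8411309 on the minus strand and at chr1:40675968-40680283 on the plus strand. The first span covers 1589 bases and the third 4316 bases for a probe of 60 bases. Of the 139 probes, 22 had a span longer than 61 bases.

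Slc22a4 (OCTN1), the ergothioneine carrier, read -4.07, -4.23 and -4.37 in Prss54KO testes, against -3.79, -4.18 and -3.65 in WT testes. WT replicate 2 fell within the Prss54KO range, and the difference was -0.35 (SE 0.15, unadjusted p = 0.0605). Slc22a6 (OAT1), an organic anion carrier of the kidney, read -3.55, -3.62 and -3.54 in Prss54KO testes, against -4.20, -4.04 and -3.56 in WT testes. WT replicate 3 stood with the Prss54KO animals, and the difference of 0.36 (SE 0.16) was -0.03 within the shared slide. The remaining tested Slc22 names differed by -0.18 (Slc22a22, which had an unadjusted p of 0.0686) to 0.08, and their genotypes overlapped.

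**Figure D3:**
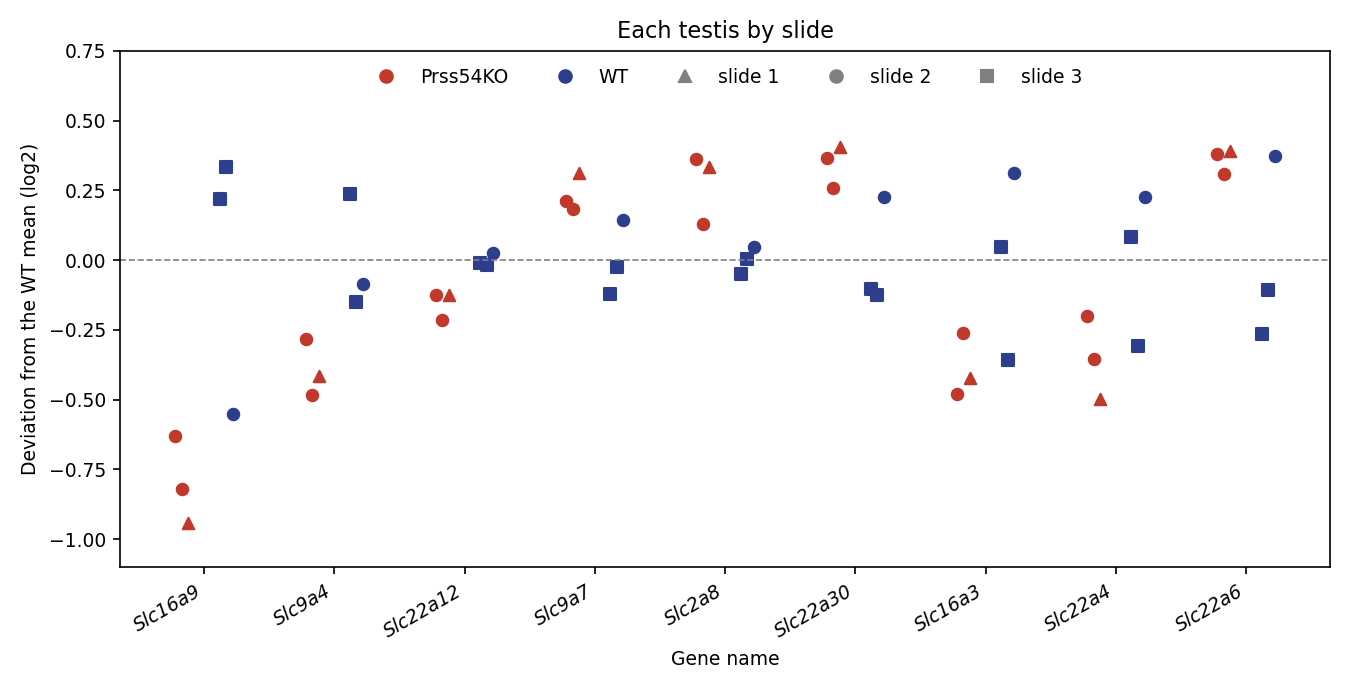
Deviation of each testis from the WT mean (vertical axis, log2) for the 6 names with an unadjusted p under 0.05 and for Slc16a3, Slc22a4 and Slc22a6. Red marks to the left are Prss54KO, blue marks to the right WT, and the shape gives the slide. In Slc16a9, Slc22a30, Slc9a7, Slc2a8 and Slc22a6 the WT testis on slide 2 stands nearest to the Prss54KO testes.

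The arrays lay on 3 slides: Prss54KO replicate 3 on slide 1, Prss54KO replicates 1 and 2 with WT replicate 3 on slide 2, and WT replicates 1 and 2 on slide 3. With the slide as a fixed block, 1 name had an unadjusted p under 0.05 (Slc16a3), against 4.27% of all genes. Within slide 2 alone 3 had (Slc16a3, Slc22a4 and Slc9a3), against 3.80% of all genes. None of these is among the 6. With the slide as a random block there were 8, the 6 with Slc16a3 and Slc22a4, against 2.84% of all genes. Only slide 2 held both genotypes, so the fixed block and slide 2 alone gave the same differences, and both rest on WT replicate 3. Slide and genotype are partly confounded, and what part the slide has in each difference was not tested further.

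Several names have more than 1 probe, which gives a second reading within the same RNA. Of 92 tested probes, 8 had an unadjusted p under 0.05 (8.70%), against 3.2% of all 28923 probes, and in 10 (10.9%) the genotypes did not overlap, against 7.8%. Of these 8, 2 were not the brightest probe of their name. A dimmer one of Slc22a18 differed by 0.24 (unadjusted p = 0.0237 by limma), and 1 of the 4 probes of Slc4a7 by 0.17 (unadjusted p = 0.0467). The 3 others of Slc4a7 gave 0.04, 0.01 and 0.13. The 10 also held the Slc2a4 probe and a dim probe of Slc9a8, which differed by 0.19 (unadjusted p = 0.0578 by limma). Of the 22 names with several tested probes, 14 had the same sign in all of them, and the probes of a name differed in level by a median of 2.36. For 12 of the 22 that gap was over 2.

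**Figure D4:**
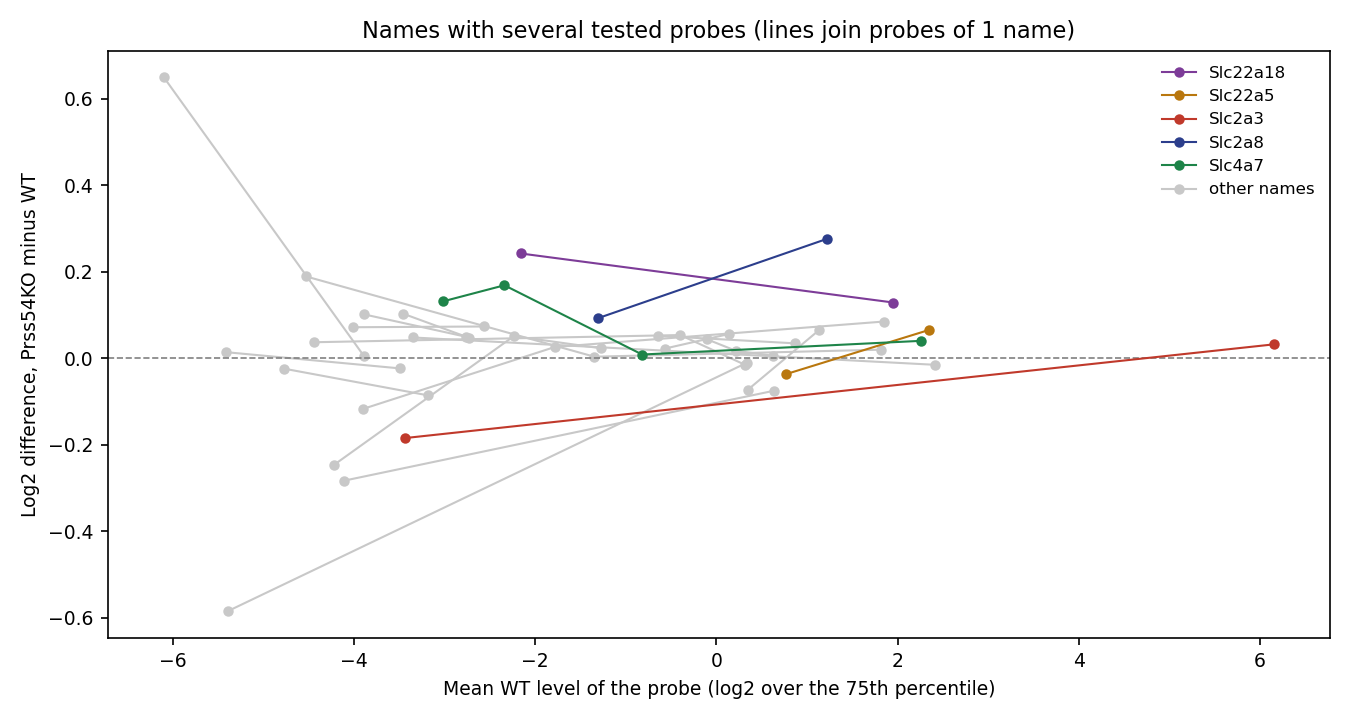
Difference, Prss54KO minus WT (vertical axis, log2), against mean WT level (horizontal axis, log2 over the array's 75th percentile) for each tested probe of the 22 names with several tested probes. Lines join the probes of a name, and 5 names are coloured. Differences of 0.4 or more in size are found only at levels below -5.

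Genes that work with these carriers gave 0 adjusted calls, and 0 had an unadjusted p under 0.05 (limma), against 0% and 3.3% of all genes. Of 23 tested partners and regulators, such as chaperones and scaffolds, 8 lay above 0, with a median difference of -0.02. The 2 with the smallest p were Ezr, which encodes the membrane linker ezrin (-0.10, SE 0.05), and Oxsr1, a kinase that regulates chloride carriers (-0.11, SE 0.08). Of 12 tested carbonic anhydrases, which make bicarbonate, 7 lay above 0, with a median of 0.01. Car15 differed by 0.14 (SE 0.08). Car3 read -6.29, -7.56 and -5.34 in Prss54KO testes, against -7.39, -3.55 and -2.57 in WT testes, and was above background on 3 arrays, and its difference of -1.89 had an SE of 1.30. That difference was -3.34 without WT replicate 1, -0.93 without WT replicate 3 and -4.35 within slide 2.

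Of 14 tested genes of lactate and pyruvate metabolism, 4 lay above 0, with a median of -0.01. Ldhd, which oxidises D-lactate, differed by 0.16 (SE 0.07), and Ldhal6b, a lactate dehydrogenase of germ cells, by -0.08 (SE 0.05). Of 23 other sugar, ion and proton carriers, 9 lay above 0, with a median of -0.02. Slc45a1, a proton-coupled sugar carrier, differed by 0.26 (SE 0.11), and Slc5a10, a sodium-coupled sugar carrier, by 0.10 (SE 0.06).

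On each array 66.2% to 74.8% of spots stood well above background and 0 gene spots were saturated. Gene levels of any 2 arrays correlated across genes at 0.994 to 0.997. Prss54 itself, read by 1 probe, stood at 2.14, 2.51 and 2.32 in Prss54KO testes, against 3.80, 3.92 and 3.93 in WT testes. All 3 Prss54KO testes lay below all 3 WT testes, with a difference of -1.56 (SE 0.10, adjusted p = 0.0714 by limma). Summed levels of the markers of 12 cell types overlapped between genotypes for every type. Those of elongating spermatids, with 9 of 10 markers tested, were 1317 to 1477 in Prss54KO testes and 1373 to 1468 in WT testes, and those of Sertoli cells, with 10 of 10, were 86.5 to 90.9 in Prss54KO testes and 85.2 to 89.3 in WT testes. Of the 7 red blood cell markers on the array, 4 were tested, of which 0 lay above 0, with a median difference of -0.51. Of 10 macrophage markers 1 lay above 0 (median -0.06), and their summed levels were 9.46 to 14.0 in Prss54KO testes and 10.3 to 13.2 in WT testes. Of 6 adipocyte markers 1 lay above 0 (median -0.13), with sums of 3.01 to 3.61 in Prss54KO testes and 2.53 to 3.46 in WT testes. Of 7 Leydig cell markers 2 lay above 0 (median -0.07), with sums of 32.8 to 33.1 in Prss54KO testes and 32.0 to 37.4 in WT testes. For peritubular and smooth muscle cells it was 1 of 6 (median -0.03). Above 0 lay 7 of 10 Sertoli, 3 of 4 epididymal, 4 of 6 spermatogonial, 6 of 10 spermatocyte and 6 of 10 round spermatid markers. Over the 12 lists 1 of 4 epididymal markers was higher and 1 of 8 endothelial markers lower at an unadjusted p under 0.05. In the other lists 0 markers were. Over all genes 1.72% were higher and 1.58% lower at that threshold. No marker passed the adjusted threshold. The part of these cells in the transporter differences was not tested. In whole testis, fewer cells of a type and less RNA per cell cannot be told apart.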

How the data were processed

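The deposited scanner files hold each spot's intensity on a linear scale, written by Agilent Feature Extraction 10.7.3.1 per the file headers (10.7 per the submitters' processing notes). The processed signal already carries that software's background treatment. The deposited table of the series holds log2 values with the same quantiles in all 6 columns and a median of 7.73. It served as an alternative only, and no source used here names the software behind it. Probe positions are those of mm9, per the file headers. All 81 names were found in the RefSeq table of GRCm38.p6, and 113 of the 139 probes matched it by accession. No genome or mm9 annotation was used, so the exon under a probe is not given.

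From each log2 processed signal the 75th percentile of its array was subtracted. Outlier spots (86 to 142 per array) were left out, spots of a probe averaged, probes bright enough on 3 or more arrays kept, and each name represented by its brightest probe. Genotypes were compared with limma 3.58.1 in R 4.3.3 (lmFit, eBayes, two-sided) over all 19398 genes, with Benjamini-Hochberg adjustment. In simulated data with 19398 genes, 200 were changed. Of these, 45 of 100 changed by 0.5 and 93 of 100 changed by 1 had an adjusted p under 0.05 (limma). There were 5 false calls, and 4.74% of the unchanged genes had an unadjusted p under 0.05. The simulated noise was independent and held no slide effect, so these shares need not hold for the real arrays. The number of arrays limits the precision.

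The transporters, the gene lists and the tests were chosen with earlier results of these data known. Values per testis were given for the 20 names with the brightest WT level and the 5 per direction with the smallest p. They were also given for tested names of known role. For the 2 genes with the smallest p of each partner list the difference was given, and for Car3 also the values per testis. The values of 2 tested names are counted above but not reported here. Replicate numbers did not pair the samples: same-numbered deviations correlated at -0.04, 0.02 and -0.16. The 18 alternatives changed the scaling (quantile), the background (normexp, offset 50), the filter (none, or all 6 arrays), the probe choice (mean of a name's probes), the input (the authors' table), the slide (fixed block, random block, slide 2 alone), the replicate block or the variance model (array weights, intensity trend with robust variance), or left out 1 testis.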

Additional observations from a re-analysis of the deposited data

How the results depend on the processing

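No transporter passed the adjusted threshold under any of the 18 alternatives. The count of names at an unadjusted p under 0.05 was 6; it was 1 with the slide as a fixed block (4.27% of all genes), 3 within slide 2 alone (3.80%) and between 2 and 8 when 1 testis was left out (1.99% to 6.50%), with 2 without WT replicate 1. The count of probes was 8 of the 92 tested, against 3.2% of all probes. It was 2 with the slide as a fixed block, 4 within slide 2 alone and between 2 and 10 when 1 testis was left out. The share of all probes under the alternatives is not given here, and the share of all genes moved between them. A change in the probe count therefore cannot be read as a result about the transporters. The median difference of the 63 names ran from -0.00 to 0.05. With the replicate number as a replicate block 5 of 63 names had an unadjusted p under 0.05, against 4.02% of all genes. The probe count was 7 there, and no adjusted call appeared or was lost. Slc2a8 had an unadjusted p under 0.05 in 15 of the 18 alternatives, Slc16a9 and Slc9a4 in 14, Slc22a30 in 12, Slc22a12 in 11 and Slc9a7 in 10. None of these 6 names had it with the slide as a fixed block. Slc2a8 also did not have it with the mean of its probes, where it differed by 0.18. The alternatives use the same 6 arrays or a part of them, so they are not independent.

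The median difference of the partners and regulators was -0.00483 with normexp correction, 0.0114 with the mean of a name's probes and -0.0393 to -0.0198 when 1 testis was left out. That of the carbonic anhydrases was -0.0700 to 0.0370 when 1 testis was left out. That of lactate and pyruvate metabolism was -0.0342 with the slide as a fixed block or slide 2 alone and -0.0296 to 0.00266 when 1 testis was left out. That of the other carriers was 0.0111 with the slide as a fixed block or slide 2 alone and -0.0364 to 0.0174 when 1 testis was left out. Of 790 single-gene values, 15 reversed by more than the spread of replicates. With the slide as a fixed block and within slide 2 alone these were Slc22a14 (-0.0939), Slc22a16 (-0.0545), Slc22a6 (-0.0274), Slc2a5 (-0.0533), Slc4a1 (-0.0646) and Slc9a3 (-0.328). Both settings gave the same differences, so each of these names is counted under both. With the mean of a name's probes they were Slc16a1 (0.0250) and Slc4a8 (-0.00367), and with normexp Slc16a1 (0.0237). The causes were not tested. Prss54 passed the adjusted threshold with normexp (adjusted p = 0.0049), with the filter on all 6 arrays (0.0384) and with an intensity trend and robust variance (0.0080) by limma. The filter on all 6 arrays left Slc26a3 and Car3 without a value, and the mean of probes gives no probe count. Signal close to background limits what can be read from the dim probes.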

Other observations

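The gap between probes of a name was not tested. Slc16a4 differed by 0.01 with the brighter of its 2 tested probes and by 0.65 (SE 0.47) with the other, which was above background on 3 arrays. Slc9a2 differed by -0.01 with its brighter probe and by -0.58 (SE 0.54) with the other, also above background on 3 arrays. Over all transporter probes, 35 of 139 were above background on 0 arrays. In all, 17 probes share a run of 15 or more bases with a probe of another gene name.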
